A study of Mus musculus with 6 samples.

Results

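Mitotic cells that already carried the transcript of Krt13, a type I keratin of the layers above the basal layer, were examined in organoids grown from mouse esophageal epithelium. A cell counted as mitotic when its mean deposited value over 8 proliferation genes (Top2a, Mki67, Birc5, Ube2c, Cenpf, Nusap1, Hist1h1b and Pclaf) reached the pooled 90th percentile of all cells with at least 500 detected genes, a score of 0.496. It counted as Krt13-high when its deposited Krt13 value was at least 3, which corresponds to 19.1 Krt13 UMIs (unique molecular identifiers, one per captured transcript) in 10000. The cells were thus chosen by measured values of these 9 genes, and the rule found 339 Krt13-high mitotic cells among 2516 mitotic cells (13.5%) and among 25154 cells in all (1.35%). The remaining 2177 mitotic cells are called Krt13-low mitotic cells. Because Hist1h1b and Pclaf belong to DNA synthesis, the score also takes in cells in S phase, so "mitotic" here means high in this score.

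Basal cells of the C57BL6 esophagus, positive for integrin-b1 and negative for the viability dye DAPI, had been sorted by Cyto-ID, a dye that labels autophagic vesicles, into Cyto-ID Low and Cyto-ID High founders. Both groups were grown in Matrigel for 15 days and depleted of dead cells, and 3 libraries per group, labelled F2, M3 and F6 in each, were made with the 10x Genomics 3′ v3.1 kit. The labels do not say whether F2, M3 and F6 are animals or cultures, so tests over libraries measure the spread between these libraries. Every library came from cultured progeny, not from the sorted cells, and the embedding and medium limit the model to epithelium without its stroma.

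Stratified squamous epithelium renews from its basal layer: basal cells divide while anchored to the basement membrane by hemidesmosomes, and daughters that leave the layer normally exit the cell cycle as they switch on Krt13 and its partner Krt4. Cornified-envelope precursors of the Sprr family come later, nearer the surface. Transcripts of division, such as Top2a (a topoisomerase that untangles chromosomes) and Mki67 (the Ki-67 antigen), rise in S phase to mitosis, and many of their promoters hold a CHR element and CCAAT boxes through which cell-cycle complexes act.

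The promoters of 2 score genes and of Krt13 are printed because the rule joins these programs in 1 cell. They come from RefSeq, build GRCm38.p6, and each shows the 250 bases before the start of the gene, read 5′ to 3′ on the gene's strand. Capitals mark the CHR letters TTTGAA and the CCAAT letters on either strand. Top2a lies on the minus strand with its window at chr11:99024190-99024439, Mki67 on the minus strand at chr7:135716380-135716629, and the first of 2 listed Krt13 starts on the minus strand at chr11:100121567-100121816.
Top2a: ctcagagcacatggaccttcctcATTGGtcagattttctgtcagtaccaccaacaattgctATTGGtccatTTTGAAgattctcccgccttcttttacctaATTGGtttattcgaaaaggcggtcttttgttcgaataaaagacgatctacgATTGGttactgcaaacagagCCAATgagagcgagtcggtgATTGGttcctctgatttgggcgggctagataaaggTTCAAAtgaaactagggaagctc
Mki67: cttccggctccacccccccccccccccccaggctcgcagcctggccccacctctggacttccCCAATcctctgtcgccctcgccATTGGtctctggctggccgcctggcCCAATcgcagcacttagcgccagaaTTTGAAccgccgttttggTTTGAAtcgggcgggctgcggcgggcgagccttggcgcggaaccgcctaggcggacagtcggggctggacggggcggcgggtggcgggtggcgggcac
Krt13: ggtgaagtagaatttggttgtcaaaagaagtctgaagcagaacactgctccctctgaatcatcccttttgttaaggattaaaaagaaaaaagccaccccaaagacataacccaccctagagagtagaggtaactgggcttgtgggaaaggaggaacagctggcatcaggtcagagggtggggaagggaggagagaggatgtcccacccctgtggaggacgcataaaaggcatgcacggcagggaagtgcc
The Top2a window holds 2 CHR and 6 CCAAT matches and the Mki67 window 2 and 3, whereas the Krt13 window printed holds none of either. The window of the second listed Krt13 start, at chr11:100120578-100120827 on the minus strand, holds 1 CCAAT match and no CHR match. Of 32851 such windows in the RefSeq table, 16.0% hold TTTGAA, 33.8% hold CCAAT and 5.55% hold both. Of the 7 score genes with a window, 3 (Top2a, Mki67 and Ube2c) hold both; a match describes the letters only.

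Libraries held 2855 to 5749 barcodes and 8457489 to 48957523 UMIs, and shared at most 10 barcodes with each other. Markers of 3 other cell types were scarce in the Krt13-high mitotic cells: Pecam1, Cdh5, Kdr, Cldn5 and Tek, the 5 endothelial markers, were at 0 in all 6 libraries. Of 8 fibroblast markers 6 were at 0, among them Col1a1, Col1a2 and Dcn, with a summed level of 0 to 18.2 CPM (UMIs scaled to a fixed total per cell and averaged over cells), against 5.84 to 37.7 in Krt13-low mitotic cells. Of 13 immune markers 11 were at 0, among them Ptprc and Cd3e, with a summed level of 0 to 28.7 CPM, against 3.39 to 15.7.

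Krt13 formed a falling tail in mitotic cells and showed no separate peak above the threshold. Of the 2516 mitotic cells, 1120 had a Krt13 value below 1, 626 lay between 1 and 2, and 431 between 2 and 3. Above the threshold, 132 lay between 3 and 3.5, 99 between 3.5 and 4, and 108 at 4 or more. The median Krt13 value was 3.71 in the Krt13-high mitotic cells and 4.36 in the 9613 other Krt13-high cells. The former carried a median of 27 Krt13 UMIs per cell, with a minimum of 2 and a median of 10 in High F6. The 20 mitotic cells just inside the threshold had values of 3.00 to 3.07 and the 20 just outside 2.93 to 3.00. At the score threshold, the 20 Krt13-high cells just inside scored 0.497 to 0.535 and the 20 just outside 0.465 to 0.494. Both boundaries therefore fall inside a continuous range.

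**Figure D1:**
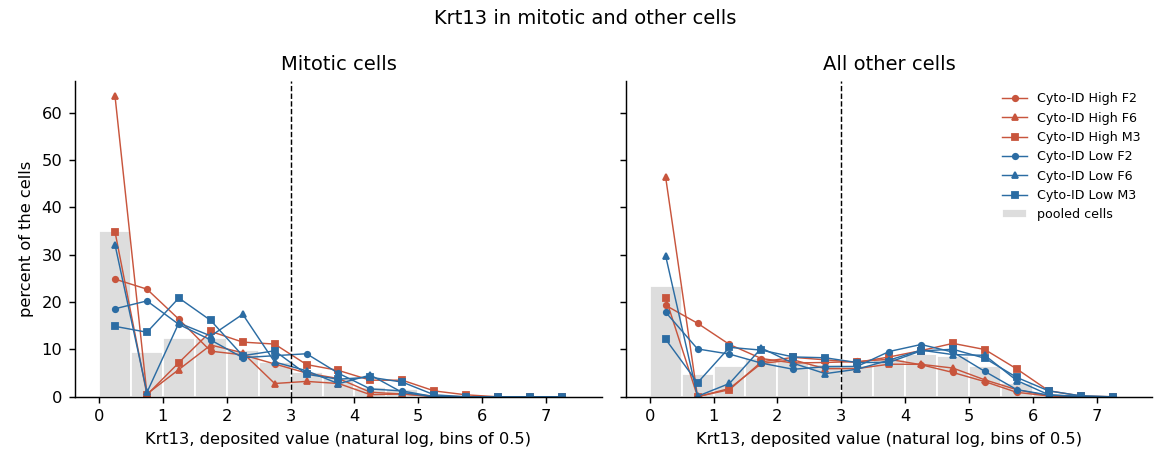
Percent of mitotic cells (left) and of all other cells (right) in each bin of 0.5 of the deposited Krt13 value, a natural log. Grey bars are pooled cells, lines are the 6 libraries, and the dashed line is the threshold of 3: mitotic cells thin out steadily past it, and other cells hold a second broad rise between 4 and 5.

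The genes that chose the cells are given as a description. Mean Top2a, averaged over cells and then libraries, was 325 ± 89.8 CPM (SD, n = 6 libraries) in Krt13-high mitotic cells, 374 ± 17.4 in Krt13-low mitotic cells and 3.84 ± 0.924 in other Krt13-high cells. Mki67 stood at 225 ± 63.8, 296 ± 69.3 and 2.47 ± 0.686 CPM, and Hist1h1b, an S-phase linker histone, at 540 ± 377, 842 ± 349 and 8.47 ± 2.00. Cdk1 and Ccnb1 are given as 2 division genes outside the score. In the test below both were among the genes of their list nearest to no difference, and 42 of its 48 genes lay below 0. Cdk1, the mitotic kinase, had 131 ± 50.9 CPM against 148 ± 43.7 in Krt13-low mitotic cells and 1.38 ± 0.489 in other Krt13-high cells. Ccnb1, its cyclin B1 partner, had 116 ± 39.2, 111 ± 23.6 and 1.66 ± 1.16 CPM. Both are genes of division like those of the score, so cells chosen by the score would be high in them too. Their levels therefore describe the cells and are no independent check of the label. The Krt13 level was lower than in other Krt13-high cells.

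Mitotic cells were a smaller part of Krt13-high than of Krt13-low cells in all 6 libraries. Of all Krt13-high cells 3.41% were mitotic, against 14.3% of Krt13-low cells. In Cyto-ID Low the shares were 2.76% against 9.75% in F2, 3.07% against 13.2% in M3 and 1.29% against 6.27% in F6. In Cyto-ID High they were 4.33% against 15.0% in F2, 4.51% against 17.2% in M3 and 3.90% against 19.3% in F6. Each of the 3 Cyto-ID High libraries lay above each Cyto-ID Low library on both sides. These shares follow from both thresholds of the rule and are not tested.

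The share of mitotic cells that were Krt13-high did not differ between founders beyond its spread. In Cyto-ID Low it was 41 of 242 mitotic cells (16.9%, 95% Wilson interval 12.7 to 22.2) in F2, 78 of 484 (16.1%, 13.1 to 19.7) in M3 and 15 of 109 (13.8%, 8.52 to 21.5) in F6. In Cyto-ID High it was 55 of 519 (10.6%, 8.23 to 13.5) in F2, 102 of 485 (21.0%, 17.6 to 24.9) in M3 and 48 of 677 (7.09%, 5.39 to 9.28) in F6. The intervals cover counting error only. The High group spanned the Low group: M3 lay above and F2 and F6 below all Low libraries. Means were 15.6% ± 1.65 and 12.9% ± 7.25 (SD, n = 3 each), a difference of -2.70 percentage points (two-sided exact permutation test, p = 0.60; 3 against 3 cannot go below 0.10), and the difference was -6.76 without High M3, -1.55 without High F2 and 0.208 without High F6.

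Counted over all cells, Krt13-high mitotic cells were 1.16%, 1.39% and 0.562% of Cyto-ID Low F2, M3 and F6, and 1.26%, 2.28% and 1.07% of Cyto-ID High F2, M3 and F6. The groups overlapped, with means of 1.04% ± 0.426 and 1.54% ± 0.647 (SD, n = 3 each) and a difference of 0.50 points (two-sided exact permutation test, p = 0.50). It was 0.131 without High M3, 0.264 without Low F6, and -0.50 with the 90th percentile taken in each library by itself. Within each of the 3 labels High was above Low, and with the labels as pairs the two-sided exact sign-flip permutation test gave p = 0.25, the smallest that 3 pairs can give.

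**Figure D2:**
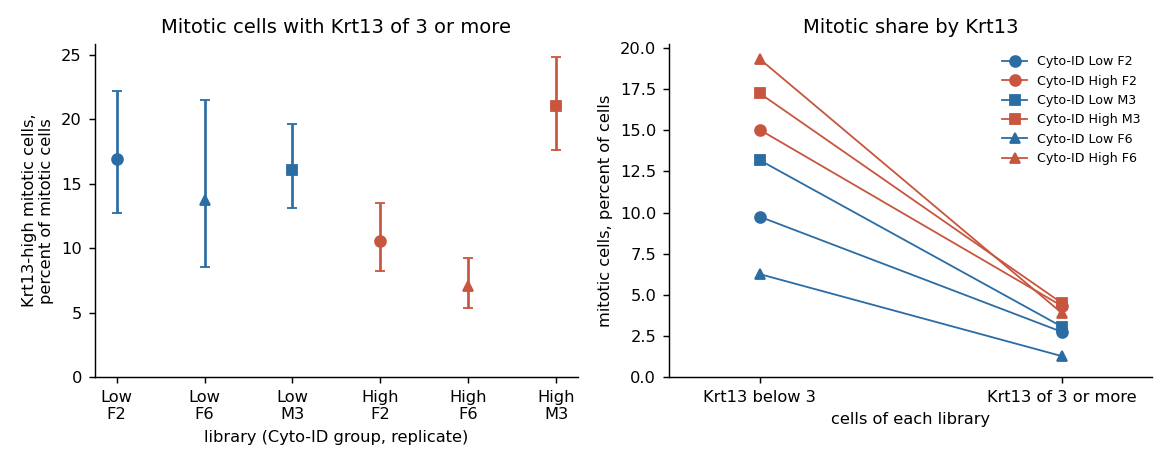
Left, Krt13-high mitotic cells as percent of mitotic cells in each library, with 95% Wilson intervals as bars; right, the percent of cells that were mitotic on each side of the Krt13 threshold, with a line for each library. High M3 is highest at 21.0% and High F6 lowest at 7.09% on the left, and all 6 lines fall to the right.

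Depth and doublet scores stood beside the classes as follows. Median UMIs per cell in Krt13-high against Krt13-low mitotic cells were 13567 against 10515 in Low F2, 9349 against 7732 in Low M3, 4331 against 3428 in Low F6, 12922 against 14626 in High F2, 3731 against 2806 in High M3 and 2854 against 2590 in High F6. They were higher in 5 of 6 libraries, by 843 on average (two-sided exact sign-flip permutation test, p = 0.25). Without Low F2 the difference was 401 UMIs and without High F2 1352 (exact permutation p = 0.0625, the smallest that 5 libraries can give). Scrublet, a tool that scores how closely a cell resembles 2 cells mixed, called 0 to 0.30% of cells doublets, too few to rely on. Its scores were high more often in the group: 25.1% of Krt13-high mitotic cells, but 9.51% of Krt13-low mitotic and 5.76% of other Krt13-high cells, were among the top 5% of their library. The count of each gene comparison below is also given without those cells, and the part of doublets was not tested beyond that.

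Among mitotic cells, those with Krt13 had higher levels of most early suprabasal and superficial genes listed (18 of 24 and 13 of 14 tested) and lower levels of 11 of 18 basal genes, where 4.83% of all genes were called higher and 3.85% lower. Krt4, the type II keratin that pairs with Krt13, Psca, a surface protein of upper layers, and the envelope precursors Sprr2d and Sprr2f rose most, by 3.44 to 3.85 on the log2 scale of means over cells, and for each of these genes the means rested on part of the cells. Thbs1, a matrix glycoprotein, Col12a1 and Krt17 fell. The lists were chosen with earlier results of these data known, so their counts are a description and not independent support. Krt5 and Krt14, the defining basal keratins, did not pass the test over the 5 libraries in either direction. Cell-cycle genes mostly did not pass either: 7 of 36 S-phase genes and 3 of 48 G2 and M phase genes were lower, and 1 of the latter was higher, so that the G2 and M phase list, at 8.33% called, lay near the 8.68% of all genes. Passing or not, 34 of the 36 and 42 of the 48 had a difference below 0, against 4434 of all 7346 genes.

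The test compared the classes inside each library, with the 9 genes of the rule left out, so a call means that a gene went with Krt13 among mitotic cells. Cyto-ID Low F6, with 15 Krt13-high mitotic cells, fell under the minimum of 20 cells and did not enter this or the later gene tests, which left 2 Low and 3 High libraries. The fit took these libraries as separate units, although the labels F2 and M3 each occur in both groups. If libraries of a label are not independent, the SE and counts here do not allow for it. The same holds for the later comparison of mitotic with other cells. At an adjusted p under 0.05 (limma on log2(CPM + 5), Benjamini-Hochberg over all genes), 638 of 7346 genes passed (8.68%), 355 higher (4.83%) and 283 lower (3.85%). The split depended on scaling: unscaled CPM gave 311 higher and 427 lower, with the median of all genes at -0.13 instead of -0.08. Without the top 5% of doublet scores 447 genes passed, 433 of them among the 638, and all 632 of those genes still measured kept their direction. Leaving out Low F2, Low M3 or High F2 gave 384, 402 and 420 genes, and adding Low F6 gave 457.

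Keratins of the suprabasal layers were higher. Krt4 stood at 234, 511 and 69.1 CPM in Krt13-high mitotic cells of Low F2, M3 and F6, and 358, 838 and 394 in High F2, M3 and F6. In Krt13-low mitotic cells it stood at 25.5, 30.7 and 15.7, and 24.7, 47.4 and 12.7. The classes did not overlap over the 6 libraries, with the smallest gap in Low F6. The log2 difference was 3.85 ± 0.18 (SE; limma, adjusted p = 4.42e-09). Krt6a, a keratin of activated and suprabasal cells, had 1908, 2534 and 1679 CPM in Low F2, M3 and F6 and 2427, 1657 and 3425 in High, against 601 to 980 in Krt13-low mitotic cells. It rose by 1.70 ± 0.08, and the related Krt6b by 3.07 ± 0.18.

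Of 24 early suprabasal genes tested 18 rose and none fell, with a median log2 difference of 1.05 against -0.08 over all genes. Of all genes 4.83% were called higher. Beside the keratins, they included Aldh1a3, an enzyme of retinoic acid synthesis (2.84 ± 0.20), Il33, an alarmin cytokine (2.81 ± 0.19), Krt20 (2.80 ± 0.22), the transcription factor Elf3 (1.72 ± 0.18) and Krt16 (1.12 ± 0.08). This list, Aldh1a3, Il33 and Krt20 included, was chosen with earlier results of these data known, so its count is not independent support. Klf4, a factor of epithelial differentiation, rose by 0.49 ± 0.10 and Krtdap, a secreted protein of differentiating keratinocytes, by 0.98 ± 0.26. Both calls were lost without the top doublet scores, at 0.42 for Klf4 and 0.96 for Krtdap (limma, adjusted p = 0.0579 each). Krtdap was also lost without High F2, Low M3 or High M3, and Klf4 with Low F6 added, where it stood at 0.13 (limma, adjusted p = 0.809). Over the 22 other settings tried, the Klf4 call was lost in 9, with values of 0.13 to 0.61, and the Krtdap call in 8.

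Genes of the superficial and cornifying layers rose too. Of 24 listed 14 were tested, and of these 13 rose and none fell (92.9%, against 4.83% of all genes called higher). Their median was 1.96. The filter of 10 CPM is on the mean over both classes, so a gene can enter through the Krt13-high class alone. The 92.9% therefore holds only for genes that passed this filter, in a list chosen with earlier results of these data known. Psca had 5547, 4023 and 1056 CPM in Krt13-high mitotic cells of Low F2, M3 and F6 and 3243, 6934 and 1083 in High. In Krt13-low mitotic cells it had 297, 318 and 826, and 448, 495 and 74.5. Every library was higher in the Krt13-high class, with Low F6 closest between classes, and the log2 difference was 3.71 ± 0.13. With the score threshold at the 95th percentile, where 3 libraries enter, the Psca difference was -0.05, and the calls of Sprr2d (1.62; limma, adjusted p = 0.222), Sprr2f (1.67; 0.244) and Sprr1a (0.83; 0.448) were lost. Sprr2d had 410 to 1647 CPM against 35.9 to 302 and rose by 3.44 ± 0.17, Sprr2f rose by 3.53 ± 0.43 and Sprr1a by 3.09 ± 0.28. Sprr2f ran from 1519 CPM in Low F2 to 16.5 in High F6, so its level differed widely among libraries. Calm4, a calmodulin-like protein of the epidermis, was the 1 tested gene that did not pass, at 1.19 ± 0.47.

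Other leading genes were Mal, a membrane-raft protein of apical transport (3.42 ± 0.21), Ppbp, a chemokine (3.22 ± 0.13), Ltf, the iron-binding lactoferrin (3.08 ± 0.20), and Gabrp, a GABA receptor subunit (3.02 ± 0.26). Mal had 73.9 to 415 CPM in Krt13-high mitotic cells over the 6 libraries and 6.56 to 43.0 in Krt13-low ones. Ppbp had 323 to 1891 against 50.8 to 150, and Gabrp 24.4 to 205 against 3.54 to 20.8. In none of these 3 genes did the classes overlap. At the 95th percentile of the score the calls of Mal (0.49; limma, adjusted p = 0.668) and Ltf (0.97; 0.401) were lost, and those of Ppbp and Gabrp were not.

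These means were carried unevenly by the cells, a description added after seeing the data. Over the 339 Krt13-high mitotic cells pooled, Psca had a mean of 4409 CPM but a median of 273, against 326 and 97.9 in Krt13-low mitotic cells, and its 5 highest cells held 31.5% of the sum. The 206 cells with a score between the 90th and 95th percentile had a Psca mean of 6962 CPM and a median of 340, and the 133 cells above the 95th had 456 and 176. The highest Psca values therefore lay in cells of lower score. Sprr2f was carried by fewer cells still: its 5 highest cells held 63.5% of the sum, its mean was 614 CPM below the 95th percentile and 34.4 above it, and its median was 0. Sprr2d stood at 1099 CPM below and 325 above, Sprr1a at 398 and 58.4, and Mal at 394 and 38.9. Krt6a was spread over the cells, with a median of 1772 against 560 CPM in Krt13-low mitotic cells, 6.08% of the sum in its 5 highest cells, and means of 2363 below and 2113 above the 95th percentile. Krt4 had a median of 0 CPM, with 22.8% of its sum in its 5 highest cells. Krt4 (598 and 386 CPM) and Gabrp (86.5 and 106) differed less between the score ranges than Psca did.

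**Figure D3:**
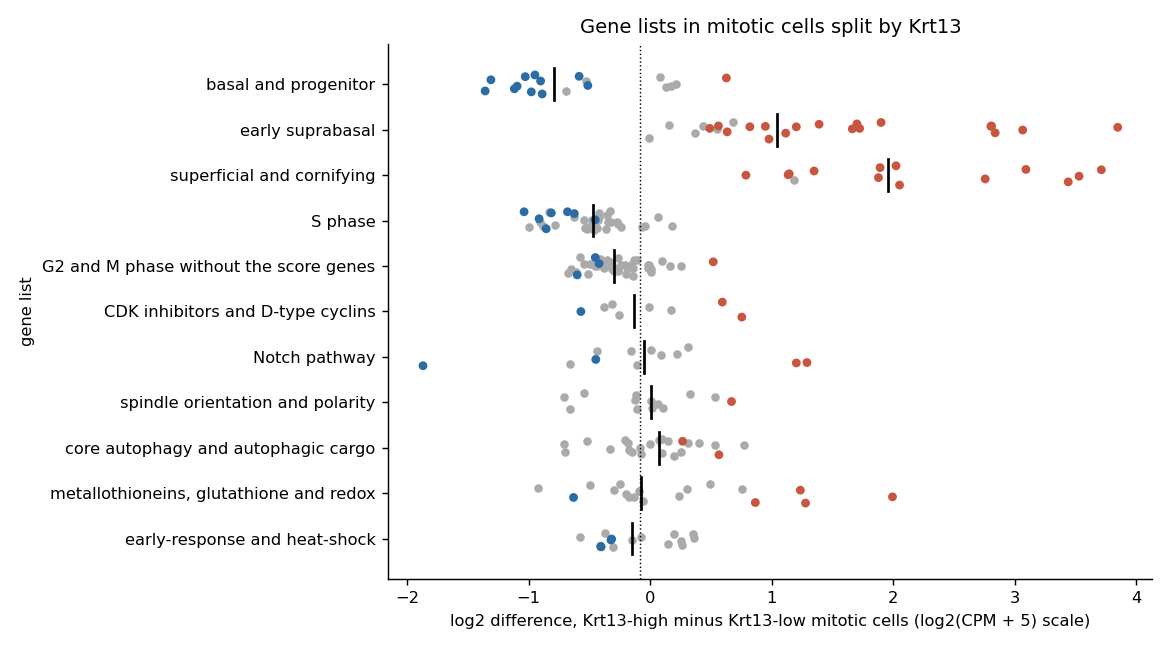
Log2 difference of each tested gene between Krt13-high and Krt13-low mitotic cells, by gene list; red and blue points passed the test as higher and lower, grey points did not, black bars are list medians and the dotted line is the median of all genes at -0.08. The early suprabasal and superficial lists lie to the right with medians of 1.05 and 1.96, the basal list is divided, and the cell-cycle lists lie slightly left.

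The basal list was divided. Of 18 genes tested 11 fell and 1 rose (66.7%, against 8.68% of all genes in either direction and 3.85% lower), with a median of -0.79. Those that fell included parts of hemidesmosomes and their ligands. Itgb4, the integrin that holds hemidesmosomes, had 218, 151 and 105 CPM in Krt13-high mitotic cells of Low F2, M3 and F6 and 120, 106 and 54.6 in High. In Krt13-low mitotic cells it had 487, 331 and 325, and 282, 213 and 157. It was lower in 6 of 6 libraries, although the ranges over libraries overlapped, and its log2 difference was -1.12 ± 0.10. Col17a1, the hemidesmosomal collagen, fell (-1.03 ± 0.08), as did Dst, a plakin that links hemidesmosomes to keratin (-0.95 ± 0.12), and Lamb3, a laminin chain of the basement membrane (-1.31 ± 0.21). Itgb1, the integrin used to sort the founders, fell as well (-1.09 ± 0.16). Itga6, the partner of Itgb4, fell (-0.58 ± 0.12) in 4 of the 5 libraries. Without Low F2 or High F2 it stood at -0.52 and -0.51 and did not pass (limma, adjusted p = 0.0502 and 0.0521).

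Keratins of the basal layer did not move together. Krt17 had 729, 1214 and 322 CPM in Krt13-high mitotic cells of Low F2, M3 and F6 and 937, 1660 and 342 in High, against 2407, 2777 and 3146, and 2081, 3668 and 1282. It was lower in 6 of 6 libraries, and its difference was -1.36 ± 0.10. Krt5 had 2832 to 4452 CPM against 2368 to 3775, a log2 difference of 0.22 ± 0.07 (limma, adjusted p = 0.0768). Krt14 had 5581 to 13126 CPM against 4923 to 12856, a difference of 0.13 ± 0.05 (adjusted p = 0.133). The ranges over libraries overlapped for both. Without High F2 both passed as higher, Krt5 at 0.28 and Krt14 at 0.18 (limma, adjusted p = 0.0318 each), and Krt14 also passed at 0.19 with classes set on cells thinned to 1000 UMIs (adjusted p = 0.00246). Trp63, the basal transcription factor p63, fell (-0.51 ± 0.14), a call lost without Low F2, High F2, Low M3 or High M3, and Sfn, a 14-3-3 protein of stratifying cells, rose by 0.63 ± 0.09.

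The largest falls among genes of at least 50 CPM, lower in each library tested, are given next. Thbs1 had 27.4, 11.8 and 0 CPM in Krt13-high mitotic cells of Low F2, M3 and F6 and 12.1, 5.62 and 5.42 in High, against 218, 66.7 and 111, and 107, 24.5 and 96.6. Every library was lower, and the difference in the fit was -2.43 ± 0.26. Wfdc18, a secreted WAP-domain protein, fell (-2.08 ± 0.17), as did Cald1, an actin-binding protein (-2.04 ± 0.26), and Col12a1, a fibril-associated collagen (-1.77 ± 0.22). Igfbp7, which binds growth factors, stood at -1.55 ± 0.10, Col18a1, a basement-membrane collagen, at -1.43 ± 0.16, Wnt10a, a Wnt ligand, at -1.40 ± 0.18, and Htra1, a secreted protease, at -1.38 ± 0.18. The transcript 4930523C07Rik stood at -1.37 ± 0.17. All of these calls, and those of Krt4, Krt6a, Krt6b, Ppbp, Gabrp, Col17a1, Itgb4, Dst and Krt17, held in each of the 22 other settings tried.

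**Figure D4:**
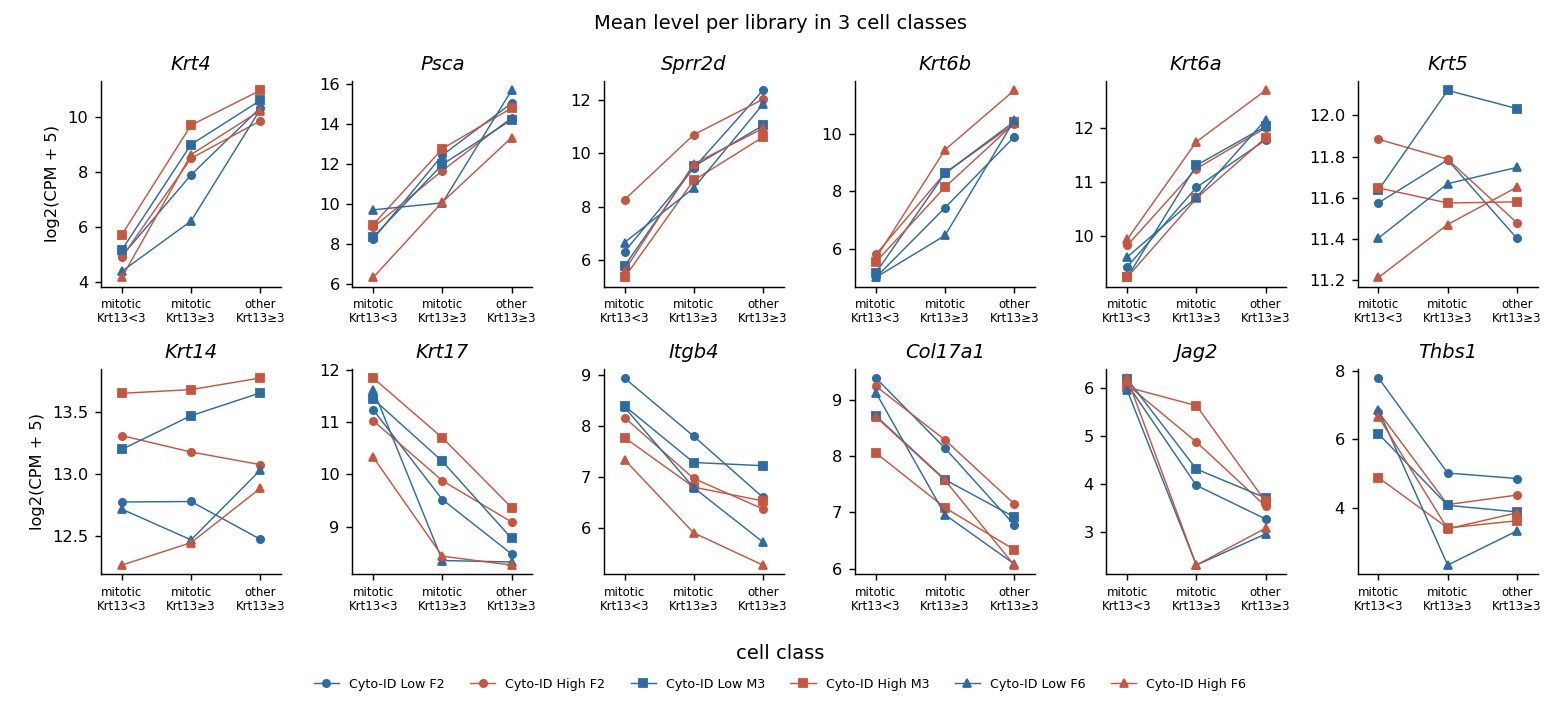
Mean log2(CPM + 5) of 12 genes in Krt13-low mitotic, Krt13-high mitotic and other Krt13-high cells; each line is 1 library (blue Cyto-ID Low, red Cyto-ID High), and Low F6 rests on 15 Krt13-high mitotic cells. Krt4, Psca, Sprr2d, Krt6a and Krt6b climb across the 3 classes, Krt17, Itgb4 and Col17a1 descend, and Krt5 and Krt14 stay in 1 range.

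Within mitotic cells the bin means of Krt4, Krt17 and Col17a1 shifted by degrees along Krt13, taken over libraries with at least 10 cells in a bin. Krt4 stood at 17.5 ± 6.07, 24.8 ± 18.2 and 46.8 ± 17.4 CPM (SD, n = 6 libraries) for Krt13 below 1, 1 to 2 and 2 to 3. Krt4 stood at 139 ± 84.6 and 322 ± 131 (n = 5) for 3 to 3.5 and 3.5 to 4. At 4 or more it stood at 911 and 1648 in the 2 libraries with enough cells, both labelled M3. The last bin thus differs from the others in its libraries as well as in Krt13. Krt17 went the other way, from 2978 ± 948 through 2568 ± 1008 and 1760 ± 872 to 1303 ± 764 and 1102 ± 715, and to 797 and 830. Col17a1 stood at 543 ± 172, 445 ± 165, 397 ± 125, 335 ± 97.9 and 162 ± 47.0 CPM, and at 64.4 and 101. Krt5 stayed between 2963 ± 534 and 3480 ± 653 through a Krt13 of 4. For Krt4, Krt17 and Col17a1, the means at Krt13 of 2 to 3 thus lay between those on either side. Krt4 was detected in 48.7% of Krt13-high and 12.9% of Krt13-low mitotic cells, so its means mix cells with and without it. Whether single cells were intermediate was not tested. Thbs1 stood at 113 ± 72.8, 109 ± 74.9 and 67.8 ± 44.9 CPM in the 3 bins below the threshold, and at 13.7 ± 14.7 and 14.4 ± 9.92 in the 2 above it up to a Krt13 of 4. Sprr2d reached 1349 ± 571 CPM at 3.5 to 4 and stood at 573 and 779 in the 2 M3 libraries at 4 or more. Mki67, a score gene, stood at 305 ± 70.6 CPM in the lowest bin and 150 ± 27.0 between 3.5 and 4.

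Genes of DNA synthesis were lower where they passed. Of 36 S-phase genes tested 7 fell and none rose (Mcm3, Tyms, Rrm1, Prim1, Rfc2, Atad2 and Pola1), with a list median of -0.47. That is 19.4% of the list, against 3.85% of all genes called lower and 8.68% called in either direction. Called or not, 34 of the 36 lay below 0, against 4434 of all 7346 genes. Mcm3, a subunit of the replicative helicase, had 33.1, 30.1 and 83.2 CPM in Krt13-high mitotic cells of Low F2, M3 and F6 and 40.6, 30.6 and 8.42 in High, against 64.2, 72.7 and 100, and 61.4, 71.6 and 40.2. It was lower in 6 of 6 libraries and its difference was -1.04 ± 0.20. That call was lost at a Krt13 threshold of 3.5 (-0.79; limma, adjusted p = 0.100), at the 95th percentile of the score (-0.28; 0.758), with cells of 1000 or more genes (-0.63; 0.0985) and without the filter on low levels (0.0523). Tyms, which makes thymidylate, fell (-0.62 ± 0.15), a call lost without Low F2, High F2, Low M3 or High M3.

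Of 48 G2 and M phase genes outside the score, 44 did not pass, 3 fell and 1 rose, with a median of -0.30. That is 8.33% of the list, against 8.68% of all genes, and the median of all genes was -0.08. Called or not, 42 of the 48 lay below 0, against 4434 of all 7346 genes. Ccnb2, which encodes cyclin B2 (0.00 ± 0.13), Dlgap5 (0.01 ± 0.23), Cdca3 (-0.01 ± 0.12), Cdk1 (-0.02 ± 0.12) and Ccnb1 (-0.02 ± 0.14) lay nearest to 0. Hmgb2, a chromatin protein of dividing cells, fell (-0.45 ± 0.09), and so did Smc4, a condensin subunit (-0.42 ± 0.12), and Anln, a scaffold of the cleavage furrow (-0.60 ± 0.16). The calls of Smc4 and Anln were lost without the top doublet scores, at -0.38 and -0.59 (limma, adjusted p = 0.159 and 0.0842), and in 4 and 3 of the 5 fits without 1 library, Low F2, Low M3 and High M3 for both and High F2 for Smc4. Tubb4b, a beta-tubulin, rose by 0.52 ± 0.08.

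Of 8 genes of CDK inhibitors and D-type cyclins 2 rose and 1 fell (37.5%, against 8.68% of all genes). Cdkn1a, which encodes the inhibitor p21, had 262, 151 and 258 CPM in Krt13-high mitotic cells of Low F2, M3 and F6 and 224, 216 and 223 in High, against 138, 116 and 382, and 165, 174 and 139. It rose by 0.59 ± 0.11 over the 5 libraries in the fit. Low F6 went the other way, and with it added the call was lost (limma, adjusted p = 0.171). Cdkn2b, which encodes p15, rose by 0.75 ± 0.16, a call lost without the top doublet scores, at 0.51 (limma, adjusted p = 0.216), and without Low F2 or High F2. Ccnd2, cyclin D2, fell (-0.57 ± 0.13), a call lost without High F2 or High M3.

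Notch genes, which drive suprabasal commitment in squamous epithelia, moved in both directions: of 12 tested 2 rose and 2 fell (33.3%, against 8.68% of all genes). Among receptors, Notch3 had 21.4, 21.2 and 63.6 CPM in Krt13-high mitotic cells of Low F2, M3 and F6 and 27.7, 18.3 and 48.2 in High, against 2.89 to 12.2 in Krt13-low mitotic cells. It rose by 1.20 ± 0.26, and Notch1 fell (-0.45 ± 0.13). Neither call held without the top doublet scores, at 1.09 and -0.43 (limma, adjusted p = 0.0567 and 0.123), and that of Notch1 was lost without Low F2, High F2, Low M3 or High M3. The ligand Jag2 had 10.7, 14.9 and 0 CPM in Low F2, M3 and F6 and 24.3, 44.4 and 0 in High, against 56.6 to 68.4. Its difference was -1.87 ± 0.39, a call lost in 2 of the 22 other settings (limma, highest adjusted p = 0.132). The target and feedback gene Nrarp had 55.2 to 121 CPM against 24.4 to 38.1, without overlap, and rose by 1.29 ± 0.19. Hes1, another target, did not pass at -0.16 ± 0.08.

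Of the spindle-orientation list 7.69% of genes were called and of the autophagy list 8.7%, close to the 8.68% of all genes. Of 13 spindle-orientation and polarity genes only Afdn, an adherens-junction scaffold, passed, at 0.67 ± 0.16, and not without Low F2 or Low M3. Of 23 autophagy genes 2 rose, Gabarap by 0.27 ± 0.08 and the cargo receptor Sqstm1 by 0.57 ± 0.16. Both calls were lost without the top doublet scores, at 0.24 and 0.50 (limma, adjusted p = 0.158 and 0.160), and without Low F2, High F2 or High M3. With Low F6 added they stood at 0.20 and 0.16 (adjusted p = 0.206 and 0.807 by limma). Of 18 redox and metal-binding genes 4 rose and 1 fell (27.8%, against 8.68% of all genes). Among the 4 was the metallothionein Mt4, whose call was lost in 13 of the 22 other settings. Without the top doublet scores Mt4 stood at 0.43 (limma, adjusted p = 0.184). Gsto1, a glutathione transferase, had 8928, 7995 and 5892 CPM in Low F2, M3 and F6 and 6068, 6802 and 4184 in High, against 1348 to 2330, and rose by 1.99 ± 0.08. Gsta4 rose by 1.28 ± 0.09 and Gclm, which makes glutathione, fell (-0.63 ± 0.10). The Gclm call was lost in 2 of the 22 other settings, over which it ran from -0.78 to -0.38 (limma, highest adjusted p = 0.127). Of 15 early-response and heat-shock genes, often induced by dissociation, none rose and 4 fell (26.7%, against 3.85% of all genes called lower), Jun (-0.32 ± 0.06) and the chaperone Hspa8 (-0.41 ± 0.07) among them.

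The Krt13 split of mitotic cells was then set against the same split in all other cells, as a difference of differences within each library. Of 7222 genes 442 passed (6.12%), 166 higher in mitotic cells (2.3%) and 276 lower (3.82%). Higher means that a gene fell less, or rose more, with Krt13 in mitotic cells. Of 18 basal genes 9 were higher and 1 lower, Col17a1 by 1.21 ± 0.11 and Lamb3 by 1.06 ± 0.17 among them. Col17a1 had 119 to 307 CPM in Krt13-high mitotic cells and 61.8 to 137 in other Krt13-high cells. Of 17 superficial genes 7 were lower and 1, Sprr2f, higher. The filter of 10 CPM is here on the mean over all classes compared, and 14 of the list had entered the test within mitotic cells. A superficial gene can thus enter through the other Krt13-high cells alone, which favours a lower value. Both lists were chosen with earlier results of these data known, so their counts are a description and not independent support. Cnfn, a late envelope protein, had 6.56 to 40.8 CPM in Krt13-high mitotic cells and 119 to 395 in other Krt13-high cells, without overlap, and was lower by -2.23 ± 0.27. Sprr3 was lower by -2.01 ± 0.32, Slpi, a secreted protease inhibitor, by -1.84 ± 0.21, and Krt4 by -1.46 ± 0.20.

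This comparison depended on matching and scaling. With Krt13 held between 3 and 4 in both classes, an alternative chosen after seeing the data, 20 genes passed, 3 higher and 17 lower. Cnfn (-2.19 ± 0.42), Gsto1 (-0.58 ± 0.07), Fth1, the ferritin heavy chain (-1.08 ± 0.11), Col17a1 (0.66 ± 0.13) and Stmn1, a tubulin-binding protein of dividing cells (0.61 ± 0.13), were among them, and Krt4 turned to 0.44. Lamb3 (0.62), Slpi (-1.06) and Sprr3 (-0.51) did not pass there, and with classes set on thinned cells neither did Cnfn (-0.86) or Krt4 (-0.51). Without the top doublet scores 325 genes passed, 115 higher and 210 lower, 313 of them among the 442. Unscaled CPM gave 438 higher and 122 lower, and scaling factors from all genes 94 and 576. Leaving out Low F2, High F2, Low M3 or High M3 gave 173, 287, 249 and 238 genes. Without the filter on low levels, limma called 0 of 20337 genes, with 2383 at an unadjusted p under 0.05.

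Between founders, the Krt13-high mitotic cells themselves differed in 1 gene by the test. Of 7166 genes 1 passed (0.014%), Krtdap, higher in Cyto-ID High, and none was lower, with 188 at an unadjusted p under 0.05. Over the 2 Low and 3 High libraries tested, the groups did not overlap, in either direction, in 17.7% of genes. Krtdap had 50.3, 84.0 and 66.3 CPM in Low F2, M3 and F6, and 966, 508 and 1580 in High F2, M3 and F6. The High libraries lay above all Low ones, with a log2 difference of 3.88 ± 0.49 (limma, adjusted p = 0.0399). The call was lost without Low F2 (3.52; limma, adjusted p = 0.0971), without High F2 (3.89; 0.310), without the top doublet scores (3.66; 0.0875), where 1 other gene passed, and without the 5% most UMIs (3.69; 0.0723). It was also lost at the 95th percentile of the score (2.65; 0.124), with cells of 1000 or more genes (4.07; 0.214), with a pseudocount of 1 CPM (3.97; 0.105), without the filter on low levels (3.88; 0.111) and with unscaled CPM (3.72; 0.0518). It held in the other 14 of 23 settings, among them the fit with the library label as a block (3.42 ± 0.29; limma, adjusted p = 1.22e-06). That blocked fit rests on the labels F2 and M3, since High F6 has no partner in it.

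A fit with the label as a block called 26 genes, 19 higher and 7 lower. Low F6 is not in it, so High F6 has no partner and the blocked difference rests on the labels F2 and M3. The fit leaves 1 residual degree of freedom, so its spread is largely borrowed across genes. Its p-values therefore say little about the spread between libraries. Mt4, a metallothionein of squamous epithelia, had 55.9, 1.29 and 0 CPM in Low F2, M3 and F6 and 799, 353 and 494 in High. Its difference was 4.87 ± 0.73 without the block (limma, adjusted p = 0.0854) and 4.84 ± 0.36 with it (1.73e-07). Of 23 other settings, the block included, Mt4 passed in 13, Gm94 in 9 and Gsta1 in 6. Gm94 had 19.4, 2.23 and 0 CPM against 324, 52.3 and 252, and 3.43 ± 0.34 with the block. Gsta1, a glutathione transferase, had 15.5, 30.4 and 0 CPM against 108, 180 and 188, and passed with the block. Krt16 had 502, 769 and 963 CPM against 1549, 2214 and 1633, and 1.67 ± 0.21. In each of these 4 genes every High library was above every Low library, Low F6 included. The genes were picked from the leaders of this comparison, and the share of all genes so separated over 6 libraries was not computed. Their separation is therefore no further support.

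Of the 7 genes lower in Cyto-ID High with the block, Alox15, a lipoxygenase, had 836, 491 and 827 CPM in Low F2, M3 and F6 and 309, 153 and 52.4 in High, at -1.43 ± 0.24 with the block. Il33 had 218, 267 and 146 CPM against 95.6, 76.3 and 95.4, at -1.35 ± 0.28. Both were lower in every High library, and neither passed without the block (limma, adjusted p of 1.00 each). Alox15 and Il33 too were picked from the leaders of this comparison, and the share of all genes so separated over 6 libraries was not computed. Their separation is therefore no further support. Sprr2f, at -1.63 ± 0.25 with the block, overlapped between groups. Adam28 and Krt20, with the smallest p-values among lower genes without the block, stood at -1.71 ± 0.40 and -1.47 ± 0.38 (limma, adjusted p = 0.805 and 1.00). With the block Adam28 passed at -1.48 ± 0.29 (adjusted p = 0.0274) and Krt20 did not.

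**Figure D5:**
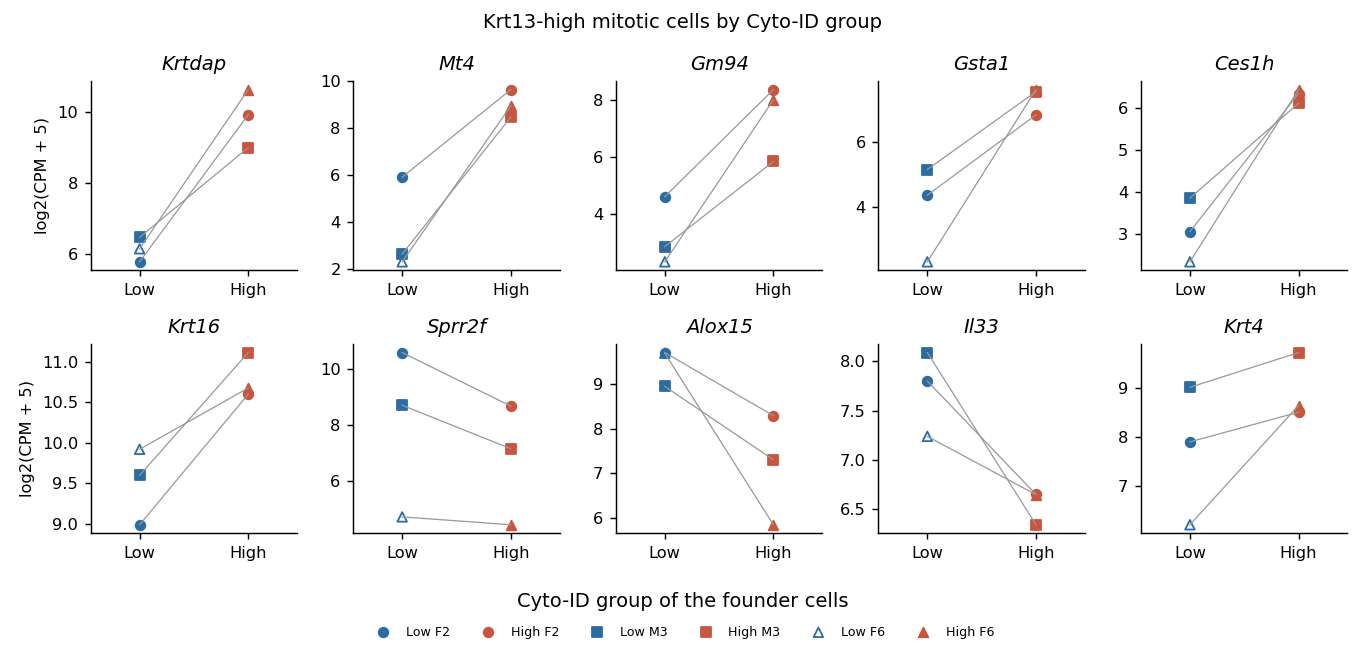
Mean log2(CPM + 5) of 10 genes in Krt13-high mitotic cells of each library by founder group, with grey lines joining libraries of the same label; the open triangle is Low F6 with 15 cells, which is not in the fit. Krtdap, Mt4, Gm94, Gsta1, Ces1h and Krt16 are higher in all 3 High libraries, Alox15 and Il33 lower, and Krt4 overlaps.

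Mt4 and Krtdap also stood higher in Cyto-ID High in other classes of cells. In Krt13-low mitotic cells, Mt4 had 15.8, 2.42 and 0 CPM in Low F2, M3 and F6 and 441, 118 and 372 in High. In other Krt13-high cells it had 56.5, 12.7 and 0.836 against 1102, 618 and 933. Krtdap had 77.3, 14.5 and 16.0 CPM against 583, 190 and 853 in Krt13-low mitotic cells. These classes share their libraries, so the values stand side by side only.

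Whether the Krt13 split among mitotic cells differed between founders was tested directly. By limma, 0 of 7346 genes passed (0.0%), with 176 at an unadjusted p under 0.05, and without the top doublet scores 0 passed, with 197. With the label as a block 14 passed, 6 higher and 8 lower. That blocked fit too rests on the labels F2 and M3, with a spread borrowed across genes. Fth1 came nearest without the block. Its Krt13-high mitotic cells had 9301 and 11302 CPM in Low F2 and M3 and 7433, 8125 and 2104 in High F2, M3 and F6, against 2322 and 2818, and 3418, 4640 and 1805 in Krt13-low ones. The rise was thus larger in both Low libraries, and the difference of splits was -1.29 ± 0.19 (limma, adjusted p = 0.0822; called with the block at -1.02 ± 0.09). Gsto1 (-0.50 ± 0.09) and Sprr2f (-2.41 ± 0.62) had the next smallest p-values among lower genes, and both passed with the block, at -0.43 ± 0.10 and -1.65 ± 0.31 (limma, adjusted p = 0.00543 and 0.000252). Among higher genes these were Tspan9 (1.04 ± 0.29), BC037156 (1.01 ± 0.29) and Baz1b (1.17 ± 0.34). For Krtdap (0.21 ± 0.55) and Mt4 (0.31 ± 0.46) the interval of the difference is wide, and no difference was detectable with 2 against 3 libraries.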

How the data were processed

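Deposited values were per-cell expression from 10x Genomics 3′ libraries of organoid cells. The submitters' processing notes name Cell Ranger 6.0.0 and Seurat 4, with the builds mm10 and GRCm38; their roles are not given in the sources used here. Deposited values are natural log values of 1 plus UMIs scaled to 10000 per cell, as read from the values: undoing the log gave whole UMIs for 100% of values (relative tolerance 1e-06). Every deposited cell had at least 500 UMIs and under 10% mitochondrial UMIs.

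Cells with 500 or more genes were scored with Python 3.11.15. Because the deposited unit is normalised, no count model was used: CPM was averaged over cells per class and library (20 cells or more), scaled by a trimmed mean of M values over genes of at least 50 CPM (a choice made after seeing the data), and tested as log2(CPM + 5) with limma 3.58.1 in R 4.3.3, mean-variance trend and Benjamini-Hochberg adjustment at 0.05, for genes averaging 10 CPM or more. Differences are on that scale and understate low genes. SE is limma's moderated standard error; levels are unscaled CPM. The fits of the Krt13 split, of founders and of mitotic against other cells were run on simulated counts before use. These had a common dispersion and no uneven spread over cells. The founder difference of the split and the blocked fits were not simulated.

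Named genes were the 10 largest differences per direction among passing genes of 50 CPM or more with the same sign in every library (for founder comparisons, no overlap), or the 3 smallest p-values where none passed, plus list members. Of 15 lists, those without values in the text had under 2 genes tested. One list of markers of another cell type is not reported here. The cells and the lists were chosen with earlier results of these data known.

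Library labels were used as pairs in the blocked fits. Deviations from the group means in Krt13-high mitotic cells correlated at 0.313 (F2), 0.404 (M3) and 0.117 (F6) over 2457 genes. Between unlike labels they ran from -0.298 to 0.0852, the latter for Low F2 with High F6, close to the F6 value. Deviations from a group mean cancel out, so low values between unlike labels are partly forced, and Low F6 rests on 15 cells. These values do not settle whether the labels pair the libraries. Doublets were not removed, since the caller marked too few. Promoter windows came from the RefSeq table; Hist1h1b had no entry.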

Additional observations from a re-analysis of the deposited data

Results flagged for a closer look

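For 3 genes the Krt13 split among mitotic cells went down in both Cyto-ID Low libraries tested and up in all 3 Cyto-ID High libraries. Only genes already named were searched for this pattern. Its share over all 7346 genes tested was not computed, so the 3 genes are a description and not a result about the groups. Calm4 differed between founders by 2.26 on the log2 scale (High minus Low), with -0.26 and -0.08 in Low F2 and M3 and 1.01, 3.83 and 1.42 in High F2, M3 and F6. Tspan9, a tetraspanin, differed by 1.04, with -0.73 and -0.51 in Low and 0.14, 0.46 and 0.67 in High. Klk10, a kallikrein-related peptidase, differed by 1.01, with -0.70 and -0.60 in Low and 0.09, 0.75 and 0.22 in High. The test of the difference itself did not pass for any of them (limma, adjusted p = 0.999 each). With the library label as a block Calm4 passed at 2.59 ± 0.59 (limma, adjusted p = 0.00795). High F6 has no partner there, so that value rests on the widely differing F2 and M3 values above, with a spread borrowed across genes. Calm4 was at 0 in the Krt13-high mitotic cells of Low F2 and M3.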

How the results depend on the processing

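The Krt13 split of mitotic cells (638 genes) was recomputed under 22 other settings. It gave 346 genes at a Krt13 threshold of 3.5, 963 and 151 with the score at the 85th and 95th percentile, 1109 with classes set on cells thinned to 1000 UMIs, 391 without the 5% most UMIs, 225 with the same cells thinned, and 348 without the filter on low levels. Leaving out 1 library gave 384 to 775. Krt13 split in mitotic against other cells (442 genes) gave 32, 89, 687, 100, 261, 0, 670 and 20 genes at Krt13 3.5, the 95th percentile, summed UMIs, thinned cells, a pseudocount of 1 CPM, no filter, scaling over all genes, and Krt13 from 3 to 4 in both classes, and 173 to 545 without 1 library. Founder differences within the Krt13-high mitotic cells (1 gene) gave 4 and 3 genes at Krt13 2.5 and 3.5, 9, 7 and 5 at the 85th, 95th and per-library percentile, 7 with thinned classes, 3 with summed UMIs, 2 with thinned cells, 2 with a pseudocount of 20 CPM, 5 with Low F6 added, and 0 to 2 without 1 library. They gave 0 by limma with cells of 1000 or more genes (158 at an unadjusted p under 0.05), a pseudocount of 1 CPM (168), no filter (419) and unscaled CPM (206), where the median of all genes stood at -0.18. The founder difference of the split (0 genes) gave 1 at Krt13 3.5, 2 at the 95th percentile, 3 with per-library percentiles, and 1 each with thinned cells, a pseudocount of 20 CPM and unscaled CPM, and 0 to 2 without 1 library. With the replicate block, which rests on the labels F2 and M3 only, the 2 founder comparisons gave 26 and 14 genes. The shares of cells could not pass 0.05 in any setting, since 3 against 3 libraries cannot go below 0.10 nor 3 pairs below 0.25.

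Without 1 library the difference in mitotic share ran from -6.76 (without High M3) to 0.208 points (without High F6), and per-library percentiles turned the share of all cells to -0.50. The UMI difference was 1621 at Krt13 3.5 (exact sign-flip permutation p = 0.03125, the smallest 6 libraries can give) and -115 with thinned classes. That test flips the Low and High libraries of a label separately. If the 3 labels were the units, sign flips could not go below 0.25. Directions turned at the 95th percentile for Psca (-0.048), Krt14 (-0.0034), Gabarap (-0.085), Sprr2f within Krt13-high mitotic cells (0.65), BC037156 (-1.90) and Sprr2f in the founder difference of the split (0.84), and Col7a1 in the mitotic-against-other comparison (-0.48). They also turned for Sqstm1 at Krt13 2.5 (-0.062), BC037156 with per-library percentiles (-0.31) and without top doublet scores (-0.34), Sprr2f in the founder difference of the split with thinned classes (1.34) and Krt4 against other cells with Krt13 from 3 to 4 (0.44). The 95th percentile both left 3 libraries and dropped lower-scoring cells; the cause of these turns was not tested. A Krt13 threshold of 4 was not run for genes (too few cells), and leaving out Low F6 changes no gene test, since it does not enter. The settings with Low F6 added, scaling over all genes and Krt13 from 3 to 4 were chosen after seeing the data. Depth of 2590 to 14626 median UMIs per mitotic cell, and 41 to 102 Krt13-high mitotic cells in each of the 5 libraries tested, limit what low genes can show.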
